A study of Triticum aestivum with 24 samples.

Results

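Leaves of unstressed wheat carried an miRNA profile that was dominated by miR166 and in which no tag passed the test for a change over the 3 sampling days. The leaves came from hexaploid wheat cv Chinese Spring, grown at 18 °C during 16 h of light and at 16 °C during the 8 h night, and were sampled as the control of a heat experiment in which other plants of the same stock spent 5 days at 37 °C. Control leaves were taken at 0, 1 and 4 DAT (days after treatment, counted from the end of the heat period of the other plants), so the days are also the ages of the unstressed plants, which had reached the boot stage when the heat period began. These control libraries are 12 of the 24 libraries of the series, and they were chosen by treatment alone, with all tags of the count table, from 37 families, kept. Each of the 3 days had 4 libraries (n = 4), and each library held the pooled RNA of 18 plants. Leaf tissue was taken from all plants on each day, so libraries with the same replicate number come from the same pool of plants and the days are not independent of each other.

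Plant miRNAs are cut from hairpin precursors, mostly as 21-nt RNAs, and one strand of the duplex, from the 5p or the 3p arm, guides an Argonaute protein to complementary mRNAs. Many conserved families target transcription factors that set leaf shape and phase of development, others target auxin receptors, and a small set responds to the supply of sulfur, phosphate or copper. Tags that share a precursor or differ by a base at an end are called isomiRs here and were counted separately. The count table holds no mRNA, so the tissue could not be checked against marker genes.

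The 12 libraries held 1772488 miRNA reads in all. Library totals ran from 58501 to 268855 (median 144604), and between 0 and 9 tags were missing from a library. A total of 187 tags were found in all 12 libraries. By mean count, 127 tags had at least 20 reads per library and 75 had fewer. Levels are given as RPM, reads in 1000000 miRNA reads of the library after scaling by TMM (trimmed mean of M values), whose factors lay between 0.73 and 1.502. Because of this scaling, the RPM of a library need not sum to that number, and families are given as a percent of unscaled reads. Control replicates 3 and 4 at 1 DAT stood apart from the other libraries, as described further on, and the counts of calls are also given without them.

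The most abundant sequences of the profile came in 2 frames. The following isomiRs are shown because they hold most of the reads and because they differ by where they start. Capitals mark the seed, bases 2 to 8 from the 5′ end.
miR166-4.1-3p: tTCGGACCaggcttcattccc
miR166-9-3p: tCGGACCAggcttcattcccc
miR166-8.1-3p: tCGGACCAggcttcaatccct
miR156-1.1-5p: tTGACAGAagagagtgagcac
miR156-3-5p: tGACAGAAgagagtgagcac
miR396-5-5p: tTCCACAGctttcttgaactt

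The sequence of miR166-9-3p starts 1 base after that of miR166-4.1-3p, and the pair shares 20 bases. The same holds for miR156-3-5p and miR156-1.1-5p. Family miR166 targets mRNAs of class III HD-ZIP transcription factors, which set the upper side of the leaf, and miR156 targets those of SPL transcription factors, which drive the change from juvenile to adult growth. The 10 miR166 tags with the seed CGGACCA held 38.9% ± 2.64 of reads (SD, n = 12), and the 6 miR166 tags with the seed TCGGACC held 38.8% ± 4.98, so that the frames took similar parts of the profile. Of the reads of miR166-4.1-3p and miR166-9-3p together, 54.2% ± 4.83 belonged to the first, with 56.8% ± 2.13 at 0 DAT, 51.6% ± 6.33 at 1 DAT and 54.3% ± 4.8 at 4 DAT (n = 4 each). The lowest value was 44.8% in replicate 3 at 1 DAT and the highest 60.4% in replicate 1 at 4 DAT. In the miR156 pair, miR156-1.1-5p made up 50.9% ± 3.65 (range 43.5% to 55.2%, n = 12). Among the 167 tags whose orientation was the same in the deposited table and in the table of names of the study, there were 117 seeds, of which 25 occurred in more than 1 tag and 1 in more than 1 family.

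The ranking was steep. Family miR166 took 78.2% ± 3.35 of reads (range 71.1% to 83.1%, n = 12), followed by miR156 with 4.67% ± 2.14 and miR396 with 4.31% ± 2.10. Family miR396 targets mRNAs of growth-regulating factors. Both auxin-related families followed at some distance. Family miR167, which acts on mRNAs of auxin response factors, held 2.42% ± 0.66, and miR393, which acts on those of the TIR1/AFB auxin receptors, held 1.08% ± 0.51. Families best known from cereals lay between them, at 2.07% ± 0.62 for miR1137, 1.98% ± 0.45 for miR9662 and 1.24% ± 0.23 for miR9669. No other family reached 1% of reads, and 14 of the 37 held less than 0.1%. The 2 most abundant tags held 71.0% ± 3.88 of reads, the 10 most abundant 90.3% ± 2.18 and the 20 most abundant 94.8% ± 1.17, while the tags of rank above 100 shared 1.11% ± 0.25. Mean levels spanned a ratio of 61120 between the highest and the lowest tag.

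**Figure D1:**
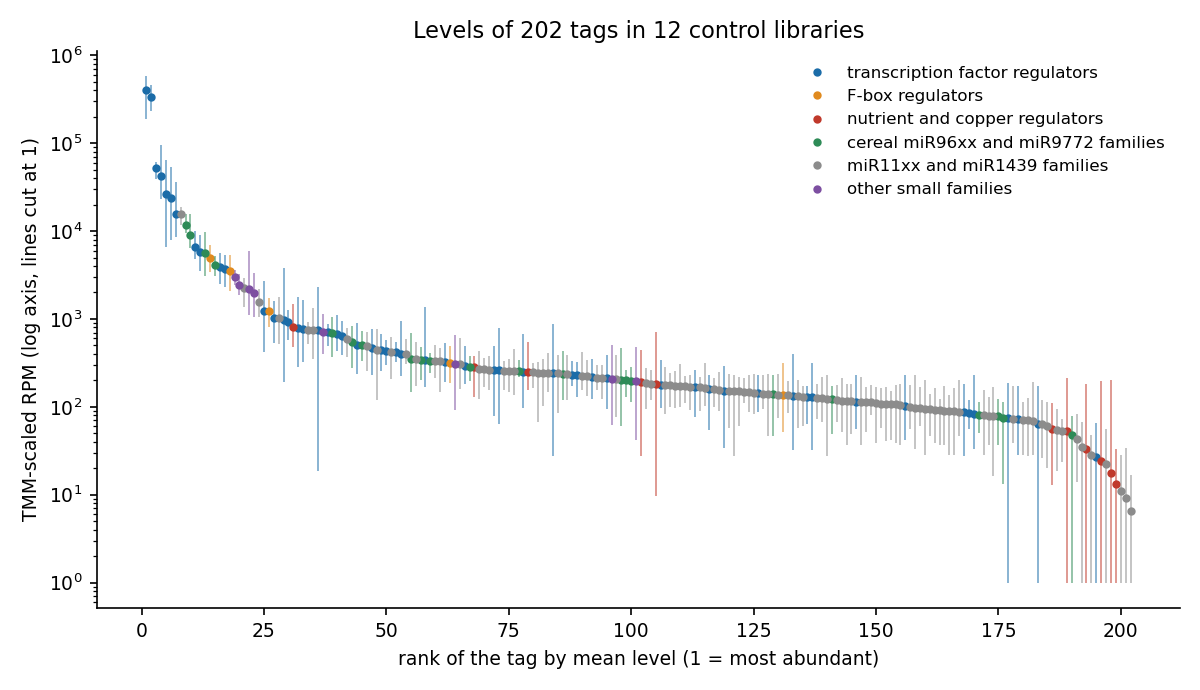
Mean level (points, TMM-scaled RPM on a log axis) of all tags against their rank, with vertical lines from the lowest to the highest of the 12 control libraries (cut at 1 RPM) and colors for 6 groups of families. The 2 leading miR166 tags stand at 398500 and 332500 RPM, 28 tags reach 1000 RPM on average, and the longest lines belong to tags of low rank.

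The most abundant tag, miR166-4.1-3p, averaged 398500 ± 109800 RPM (n = 12; lowest 187500, median 383900, highest 581100). It was followed by miR166-9-3p with 332500 ± 83420 RPM. The third, miR166-8.1-3p, reached 51670 ± 6725 RPM, which is why the ranking drops sharply after the first pair. Places 4 to 6 were held by miR396-5-5p with 41880 ± 19470 RPM, miR156-1.1-5p with 26450 ± 17760 RPM and miR156-3-5p with 23950 ± 13590 RPM. Behind them came miR167-2-5p with 15680 ± 7418 RPM, miR1137-443-5p with 15660 ± 1987 RPM, miR9669-1.1-5p with 11720 ± 2025 RPM and miR9662-1.1-3p with 8925 ± 2387 RPM. Places 11 to 20 went to miR167j-1, miR166-8.2-3p, miR9662-1.2-3p, miR393-6-5p, miR9662-1.3-5p, miR166-4-3p, miR166-12.1-3p, miR393-2-5p, miR2012b-1 and miR5064a-1, whose means ran from 6582 down to 2435 RPM.

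Neighbours in this order were rarely separated. Of the 19 neighbouring pairs among the 20 most abundant tags, 1 kept its order in all 12 libraries, that of miR166-9-3p over miR166-8.1-3p with a 6.44-fold ratio of means. The first tag exceeded the second in 9 of 12 libraries, miR156-1.1-5p exceeded miR156-3-5p in 8 of 12, and miR167-2-5p exceeded miR1137-443-5p in 6 of 12. Even so, the set of leading tags was stable, since 15 tags were among the first 20 in every library and 8 among the first 10. At the other end were miR395-7-3p with 17.8 RPM, miR528-1.5-5p with 13.1 RPM, miR1123-39-5p with 10.9 RPM, miR1136-235-3p with 9.16 RPM and miR1121-18-3p with 6.52 RPM. Each of these 5 was absent from at least 3 libraries, and their mean counts lay between 1.08 and 2.08 reads per library, at which a level cannot be told from its neighbours.

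The main tag of a family held very different parts of it from one family to the next. In miR396 the main tag made up 98.7% ± 0.28 of the family's reads (n = 12), and in miR9669 94.97% ± 1.02. In miR1137 it made up 78.4% ± 1.64, in miR1121 (miR1121-33-5p, 2237 ± 424.5 RPM) 68.8% ± 3.96, and in miR171 (miR171-7-3p, 1025 ± 324.9 RPM) 66.8% ± 6.49. Among the 23 tags of miR166, miR166-4.1-3p made up 49.3% ± 4.77. Other families with many tags had no leading tag. The tag miR1135-1184-5p (1016 ± 379.4 RPM) was 14.7% ± 4.51 of the 27 tags of miR1135. The tag miR1118-173.1-5p (244.5 ± 69.98 RPM) was 15.7% ± 3.89 of the 12 tags of miR1118, and miR1136-1752-3p (346.6 ± 103.2 RPM) 13.3% ± 3.10 of the 16 tags of miR1136. The same held for miR169, where miR169-45-3p (797.0 ± 461.9 RPM) made up 30.0% ± 13.7 of 8 tags, and for miR9772, where miR9772-1-5p (683.3 ± 199.6 RPM) made up 31.8% ± 6.34 of 6 tags.

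Several regulators that are well known in plant development lay far below the leading tags, where the median of the mean levels of all tags was 194.4 RPM. The main miR159 tag, miR159f-1, averaged 1247 ± 784.5 RPM (lowest 420.7, median 916.7, highest 2706). The only miR319 tag, miR319g-1, whose family acts on mRNAs of TCP transcription factors, stood at 141.8 ± 36.3 RPM and the only miR394 tag, miR394-3-5p, whose family acts on the mRNA of an F-box protein, at 137.3 ± 70.5 RPM. The phosphate-related miR399-18-3p, of the family that acts on PHO2 mRNA, had 246.7 ± 111.6 RPM, and the copper-related miR398-1.2-3p 52.9 ± 63.4 RPM, with 3 libraries at 0. A further 7 families with 1 tag lay between 172.6 and 2216 RPM, with miR2020b-1 at 2216 ± 1282 RPM, miR5062a-1 at 1948 ± 809.1, miR2006b-1 at 704.7 ± 193.0, miR1131-281-5p at 239.5 ± 98.0, miR9664-1-5p at 200.6 ± 121.8, miR530-2-5p at 195.9 ± 127.9 and miR1439-2-5p at 172.6 ± 53.3. The main tags of the remaining families were miR1122-1462-3p (419.2 ± 134.8 RPM), miR9670-2.1-5p (348.8 ± 158.1), miR1318b-1 (309.3 ± 152.3), miR1120-1115-3p (262.6 ± 65.8) and miR1133-92-5p (143.1 ± 48.4).

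Tags were grouped by the known targets of their families or, for the miR11xx, cereal and other small families, by family name. The 55 tags of the 8 families that target transcription factors (miR156, miR159, miR166, miR167, miR169, miR171, miR319 and miR396) held 90.2% ± 2.40 of reads. The 101 tags of the miR11xx and miR1439 families held 3.86% ± 1.12, with a median level of 139.1 RPM per tag. The 22 tags of the cereal families miR9662, miR9664, miR9669, miR9670 and miR9772 held 3.53% ± 0.68. The 5 tags of miR393 and miR394, which target F-box proteins, held 1.09% ± 0.51, and the 8 tags of 7 other small families 1.11% ± 0.23. The study also reports F-box targets for isomiRs of miR9772, miR1133, miR1135 and miR1136, which stay in the groups by name here. The 11 tags of the nutrient and copper families miR395, miR398, miR399 and miR528 held 0.203% ± 0.111, with a median level of 56.3 RPM.

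Tags of 21 nt carried 91.3% ± 1.02 of reads (range 89.5% to 93.0%, n = 12). Tags of 22 or 23 nt carried 4.27% ± 0.70, those of 20 nt 3.48% ± 0.75, those of 24 nt 0.615% ± 0.269 and those of 18 or 19 nt 0.326% ± 0.103. A T (U in the RNA) at the first base was found in 59.9% of tags and in 95.7% ± 0.97 of reads. The 30 tags of 24 nt differed in this respect, as 37.7% ± 2.19 of their reads began with T, 28.1% ± 3.30 with G and 21.8% ± 3.24 with A. Because 35 tags, 16 of them of 24 nt, were deposited as the reverse complement of the named sequence, the first base is uncertain for these. Without the 35, T began 96.2% ± 0.84 of reads over all lengths. The shares given for the 24-nt tags include the 16, so the order of G and A among them is not settled.

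Length variants of 1 tag were mostly uneven in abundance. The 21-nt miR166-9-3p made up 98.9% ± 0.11 of the reads of itself and the 22-nt miR166-4-3p (range 98.7% to 99.0%, n = 12). In the same way, miR166-8.1-3p made up 98.7% ± 0.19 of itself and the 22-nt miR166-8.3-3p, and miR1137-443-5p made up 98.7% ± 0.25 of itself and miR1137-280-5p. The longer form prevailed elsewhere. The 22-nt miR9669-1.1-5p left 4.395% ± 1.01 of the pair to the 21-nt miR9669-1.2-5p, and the 22-nt miR167-2-5p left 1.89% ± 0.61 to the 21-nt miR167-1-5p. These small shares varied between libraries, from 2.80% to 5.93% for miR9669-1.2-5p and from 1.22% to 3.63% for miR167-1-5p. A length of 22 nt in a plant miRNA is known to favor the production of secondary small RNAs from its targets. Several pairs were mixed, among them miR9772-6-5p (19 nt) at 47.6% ± 6.45 of itself and miR9772-4-5p (20 nt). The 18-nt miR166-5.1-3p made up 49.96% ± 5.83 of itself and the 19-nt miR166-7.1-3p. For miR396-3-5p, the 20-nt form made up 46.9% ± 12.2 of itself and the 21-nt form.

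Both arms were represented by at least 20 reads per library on average in 14 families. Tags whose names give no arm were not counted. In miR167 this left out the abundant miR167j-1, which shares the seed GAAGCTG with the 5p tags of the family. The 3p arm prevailed in miR166, by a geometric mean of 794 times over the 5p arm, and also in miR171 (8.11 times), miR9662 (3.57 times) and miR1136 (3.42 times), in 12 of 12 libraries each. The 5p arm prevailed in all 12 libraries in miR167 (12.0 times), miR1137 (8.42 times), miR393 (7.19 times), miR1121 (6.97 times), miR528 (4.76 times), miR1135 (4.09 times), miR1118 (2.76 times) and miR1120 (2.11 times). In miR1133 the 5p arm was higher in 11 of 12 libraries and in miR1122 in 2 of 12. Over the 42 comparisons of the log2 arm ratio between 2 days, the smallest two-sided exact permutation p was 0.0571 (n = 4 a day), above the 0.0286 that 4 libraries against 4 can reach at best, and no adjusted p was under 0.6. The comparisons at that p were miR1118 and miR9662 from 0 to 1 DAT, with differences of -0.32 and -0.37 (log2), and miR1136 and miR167 from 0 to 4 DAT, with differences of 0.49 and 0.37.

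**Figure D2:**
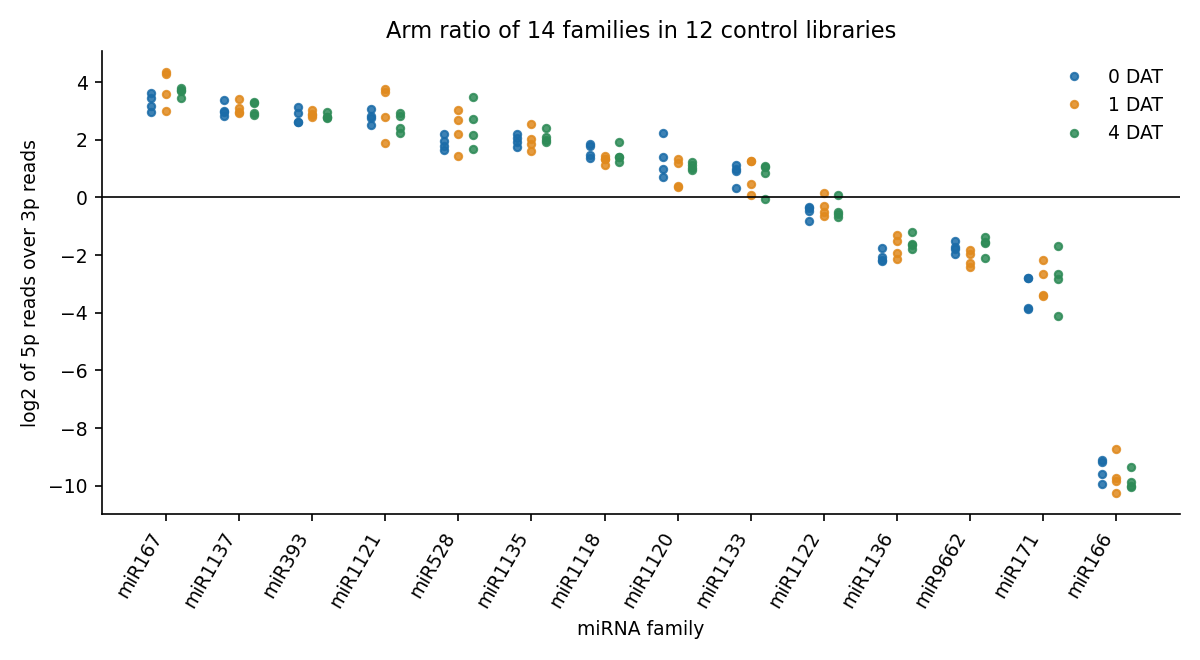
Log2 ratio of 5p to 3p reads (pseudocount 0.5, only tags with an arm in their name) in 14 families. Each of the 12 control libraries has 1 point, colored by day. The families order from miR167, with a geometric mean of 12.0, to miR166, with 794 times more 3p than 5p reads, and the points of the 3 days overlap within each family.

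The first question about time was whether any tag changed between the 3 days. With edgeR's quasi-likelihood test over the 12 control libraries and Benjamini-Hochberg adjustment over all tags, 0 tags passed FDR < 0.05 in the joint test of the 3 days, that is 0% of those tested, and 3 had an unadjusted p under 0.05. From 0 to 1 DAT, 0 tags (0%) passed and 7 had an unadjusted p under 0.05, of which 4 were higher and 3 lower at 1 DAT. From 0 to 4 DAT, 0 tags (0%) passed and 5 had an unadjusted p under 0.05, of which 1 was higher. From 1 to 4 DAT, 0 tags (0%) passed and 4 had an unadjusted p under 0.05, all of them lower at 4 DAT. DESeq2 also called 0 tags in each of these, with unadjusted p under 0.05 for 5 tags in the joint test and for 7, 6 and 2 tags in the 3 contrasts, and the likelihood ratio test of edgeR called 0 with 6, 7, 8 and 5. With the pool of plants as a block the count was 0 in all 4 tests, with 1, 3, 4 and 4 tags at an unadjusted p under 0.05. Leaving out control replicates 3 and 4 at 1 DAT also gave 0, with 5, 3, 7 and 6 such tags. At the level of families, 0 of 37 (0%) passed in the joint test and in each contrast, and 0, 0, 2 and 0 had an unadjusted p under 0.05.

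A test that is not passed does not show that a tag stayed the same, so the widths of the intervals matter. The 95% interval of a log2 difference from 0 to 1 DAT reached a median of 0.78 to either side over all tags, a 1.72-fold change, and 0.59 over the 20 most abundant, a 1.51-fold change. For the 20 most abundant tags, the whole interval lay within 4-fold in every contrast, and within 2-fold for 16 tags from 0 to 1 DAT, 17 from 0 to 4 DAT and 15 from 1 to 4 DAT. Over all tags, intervals within 2-fold were had by 101, 100 and 107 tags. The estimates of the 20 most abundant tags ran from -0.24 to 0.58 (log2) from 0 to 1 DAT, from -0.30 to 0.44 from 0 to 4 DAT and from -0.54 to 0.29 from 1 to 4 DAT. Day means lay within 1.5-fold for 178 tags between 0 and 1 DAT, 173 between 0 and 4 DAT and 174 between 1 and 4 DAT.

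**Figure D3:**
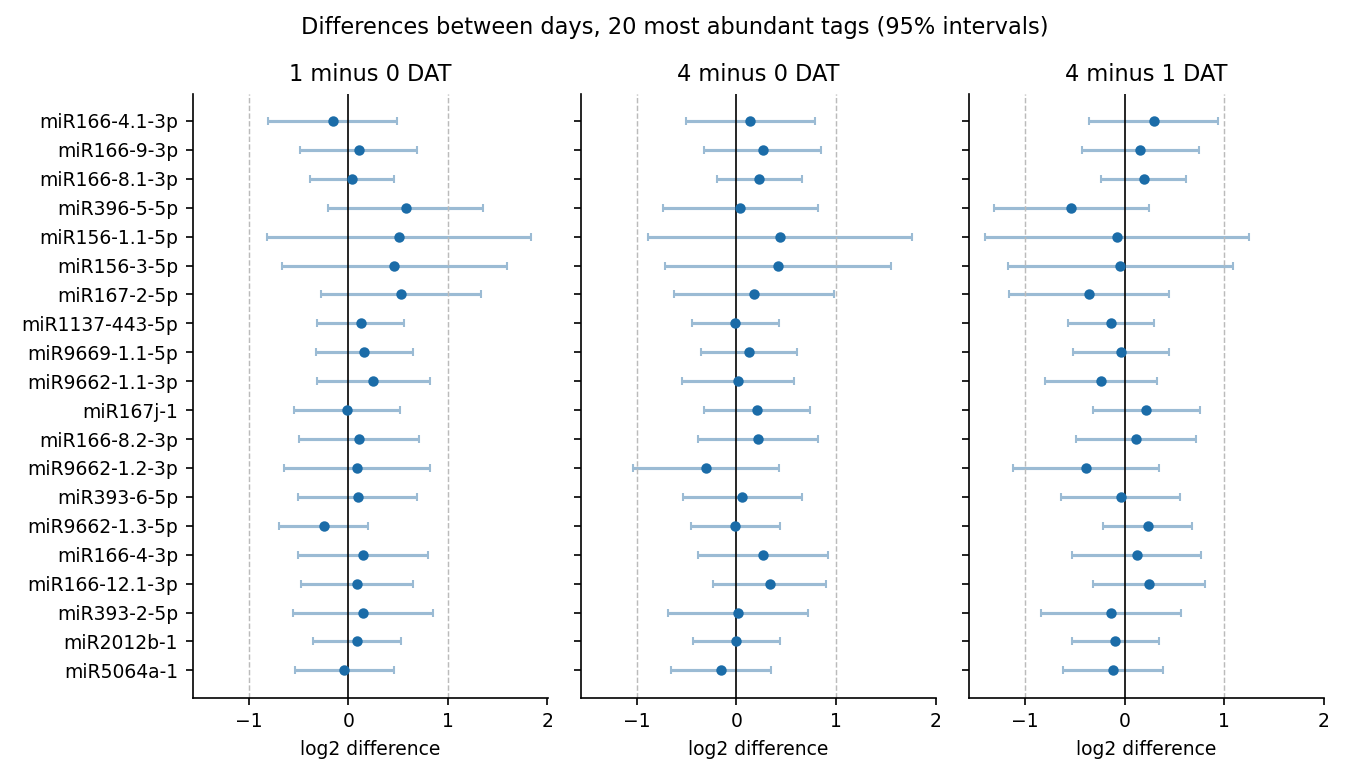
Log2 difference between days (points) with its 95% interval (bars) for the 20 most abundant tags, from edgeR's fit of the 12 control libraries, in 3 panels for the 3 contrasts. Dashed lines mark 2-fold, and the estimates run from -0.54 to 0.58 over the panels.

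The tags that came nearest to the threshold were read one by one, none of them past it. The 20-nt miR159g-1, of a family that targets GAMYB-like MYB transcription factors, had 282.1, 328.0, 280.5 and 224.7 RPM in replicates 1 to 4 at 0 DAT, 297.2, 305.1, 257.4 and 571.7 at 1 DAT, and 566.4, 516.1, 938.1 and 269.9 at 4 DAT. At 4 DAT 3 of the 4 libraries lay above all those of 0 DAT, and the fourth lay among them. The difference from 0 to 4 DAT was 1.04 ± 0.36 (log2, SE), with an unadjusted p of 0.0117 and an edgeR FDR of 0.994. In the same contrast the estimates were -1.04 ± 0.38 for miR1135-1458-3p, -0.62 ± 0.24 for miR9670-1-5p, -0.73 ± 0.28 for miR171-7-3p, which targets GRAS transcription factors, and -0.65 ± 0.28 for miR9772-1-5p.

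Between 0 and 1 DAT the smallest p belonged to miR167-1-5p, the 21-nt form of the main miR167 tag. Its levels were 216.5, 307.9, 168.3 and 174.1 RPM at 0 DAT, 234.7, 412.3, 174.6 and 1372 RPM at 1 DAT, and 231.7, 331.8, 239.7 and 176.8 RPM at 4 DAT. The value of 1372 RPM, in replicate 4 at 1 DAT, stood alone, and the other 3 libraries of that day overlapped those of 0 DAT. The difference was 1.31 ± 0.53 (log2; unadjusted p 0.0254, edgeR FDR 0.994), and between 0.37 and 1.60 when each library was left out in turn, the lowest value being that without this library. From 1 to 4 DAT its difference ran from -1.45 to -0.17 in the same way. Next were miR166-13-3p (1.11 ± 0.45), an 18-nt form of the miR166 tags, miR1137-264-3p (-1.07 ± 0.44) and the 19-nt miR166-1-3p (0.70 ± 0.29), whose level was 221.9 ± 63.2 RPM at 0 DAT, 365.9 ± 117.5 at 1 DAT and 283.1 ± 37.5 at 4 DAT. Both miR166-13-3p (2 to 19 reads per library) and miR1137-264-3p (3 to 21) had a mean count under 20.

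The tag miR395-7-3p, an 18-nt form of the family that targets ATP sulfurylase mRNAs, had the smallest p in the joint test (0.0274, edgeR FDR 0.999). It held 24 reads in all 12 libraries, 22 of them in replicate 3 at 1 DAT, and was at 0 in 9 libraries, so its rank rested on that library, and without it the estimates turned to the other direction. From 1 to 4 DAT the remaining tags with the smallest p were miR396-3-5p (20 nt) with -0.90 ± 0.37, miR1136-1339-3p with -0.83 ± 0.37, miR167-1-5p with -1.16 ± 0.52 and miR9772-4-5p with -0.50 ± 0.24, all with an edgeR FDR of 0.974.

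Among the target groups, the nutrient and copper families had estimates of 1 sign without a call. From 0 to 4 DAT, all 11 tags of miR395, miR398, miR399 and miR528 had an estimate below 0, with a median of -0.86 (log2), beside 49.0% of all tags, whose median was 0.01, and 0 of the 11 passed the test (0% of all tags did). The list holds 5 isomiRs of miR528, 3 of miR395 and 2 of miR398, so its members are not independent, and of the 11 tags, 5 had at least 20 reads per library. Of the 5, miR528-1.3-3p had an estimate of -1.08 (95% interval -2.29 to 0.14), miR395-18-3p of -1.46 (-3.63 to 0.71), miR528-1.2-5p of -0.47 (-1.15 to 0.21) and miR399-18-3p of -0.36 (-1.17 to 0.45), so that each interval held 0. The highest level was in replicate 2 at 0 DAT for miR398-1.1-5p, miR398-1.2-3p (32 of its 85 reads), miR528-1.1-5p and miR528-1.5-5p. For miR528-1.2-5p and miR528-1.3-3p it was in replicates 1 and 3 of that day, and for the other tags at 1 DAT. The part of single libraries in the shared sign was not tested. From 0 to 1 DAT 7 of the 11 were below 0 (median -0.33), beside 40.1% of all tags. From 1 to 4 DAT 9 of the 11 were below 0 (median -0.14), beside 55.9% of all tags. In the transcription factor list, 16 of 55 estimates were below 0 from 0 to 4 DAT (29.1%, median 0.21) and 15 of 55 from 0 to 1 DAT (27.3%, median 0.22), beside the same 49.0% and 40.1% of all tags, and 0 of the 55 passed. These members are not independent either, since 23 of the 55 are isomiRs of miR166. Of the 5 F-box tags, 5 had an estimate above 0 from 0 to 4 DAT, with a median of 0.06. In the miR11xx and miR1439 families the median was 0.01 from 0 to 1 DAT and -0.04 from 0 to 4 DAT, and in the cereal miR96xx and miR9772 families it was 0.13 and 0.06, with no tag past the test.

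The copper-related miR528 is a monocot family whose targets in rice include L-ascorbate oxidase mRNA, and miR395 rises when sulfate is short. The main tag miR528-1.1-5p has the seed CAGCAGC, whereas miR528-1.2-5p has the seed GGAAGGG. Among its selected targets, the study lists L-ascorbate oxidase for the latter tag and not for the main one. This target is therefore not assigned to the main tag here. The main tags of miR528 and miR395 are shown with miR167-2-5p and miR2012b-1 for the values that follow, again with the seed in capitals.
miR528-1.1-5p: gCAGCAGCggtggaaggggc
miR395-18-3p: tGAAGTGTttgggggaactc
miR167-2-5p: tGAAGCTGccagcatgatctga
miR2012b-1: tGGACGAGgatgtgcaactgc

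In unstressed leaves miR528-1.1-5p had 478.9, 1466, 1388 and 668.5 RPM at 0 DAT, 1241, 593.7, 505.5 and 600.3 RPM at 1 DAT, and 566.4, 746.5, 632.3 and 772.4 RPM at 4 DAT. The libraries of 0 DAT fell into a low and a high pair, and their range enclosed all those of the later days. The difference from 0 to 4 DAT was -0.55 ± 0.38 (log2). Summed over its 5 tags, family miR528 stood at 1757 ± 589 RPM at 0 DAT, 1206 ± 257 at 1 DAT and 1108 ± 335 at 4 DAT, and its difference of -0.66 ± 0.28 from 0 to 4 DAT had the smallest p of the 37 families (unadjusted p 0.0370, edgeR FDR 0.681). Family miR159 followed with a difference of 0.95 ± 0.43 (unadjusted p 0.0470, edgeR FDR 0.681).

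The spread between libraries was far from uniform. Over the 127 tags with at least 20 reads per library, the coefficient of variation (CV, SD over mean in percent) had a median of 30.1%, where counting error alone would give a median of 15.1%, and ran from 12.1% to 122.8%. The smallest CVs were those of miR2012b-1 (12.1%), miR1137-443-5p (12.7%), miR166-8.1-3p (13.0%), miR9772-6-5p (14.8%) and miR9662-1.3-5p (15.3%). All of these CVs are of TMM-scaled levels. The steadiest on that scale, miR2012b-1, lay between 2434 and 3643 RPM with a median of 3072. Within family miR166, the tags miR166-4.1-3p and miR166-9-3p had CVs of 27.6% and 25.1%. After TMM scaling the third tag of the family was thus steadier than the pair above it. In shares of unscaled reads this order of steadiness did not hold. There, miR166-4.1-3p held 38.64% ± 4.98 (range 28.15% to 45.68%) and miR2012b-1 0.308% ± 0.087 (range 0.21% to 0.523%).

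The largest CVs among these tags were those of miR395-18-3p (122.8%), miR169l-1 (110.6%), miR167-1-5p (99.3%), miR167-14-3p (94.9%) and miR156-6-5p (91.5%). The tag miR395-18-3p had 137.8, 495.4, 336.5 and 28.1 RPM at 0 DAT, 20.9, 99.0, 707.7 and 9.53 RPM at 1 DAT, and 64.4, 27.7, 53.7 and 186.1 RPM at 4 DAT, so that its extremes, 74.3-fold apart, were found on the same day. The tag miR169l-1, of a family that targets NF-YA transcription factors, had its lowest value of 18.4 RPM at 4 DAT in replicate 2 and reached 2285 RPM in replicate 3 of that day, and 2314 RPM in replicate 3 at 0 DAT. Over all tags of the nutrient and copper list the median CV was 75.4%, beside 34.3% over all tags, 45.4% in the other small families, 39.1% in the families that target transcription factors, 33.8% in the miR11xx and miR1439 families, 29.2% in the cereal miR96xx and miR9772 families and 26.1% in the F-box families. Among tags with at least 20 reads per library, the 5 of the nutrient and copper list had a median CV of 45.2% and the 8 of the other small families 45.4%, beside 30.1% for all such tags. These groups differ in depth, and the part of counting error in the order of their CVs was not tested.

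**Figure D4:**
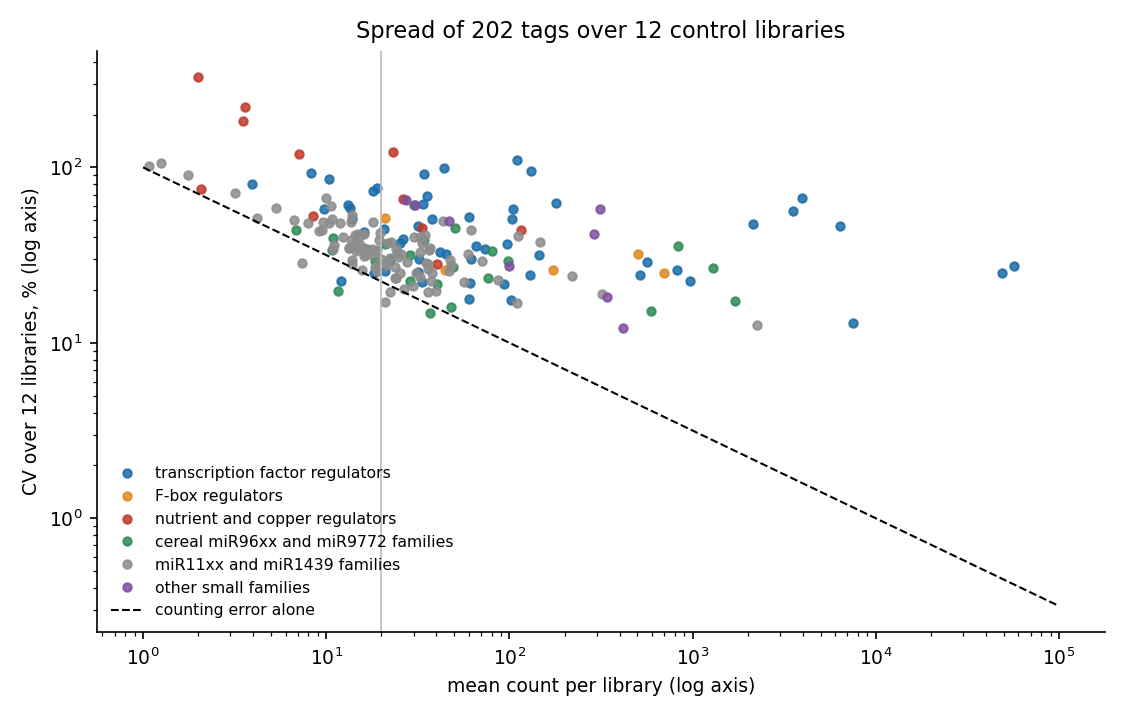
CV over the 12 control libraries (log axis, percent) against the mean count per library (log axis) for all tags, colored by group of families, with the dashed line showing counting error alone and the vertical line 20 reads. The tags of nutrient and copper families lie towards the top, with a median CV of 75.4% against 34.3% over all tags.

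Of the sum of squares of log2 levels over all tags, 12.1% lay between days and 25.9% between pools of plants, and these parts have 18.2% and 27.3% of the degrees of freedom, so neither exceeded what its degrees of freedom hold. The Spearman correlation over all tags, given as a description, had a median of 0.858 between libraries of the same day, 0.865 between libraries of the same pool on different days, and 0.873 between libraries that shared neither. Between day means it was 0.971 for 0 and 1 DAT, 0.962 for 0 and 4 DAT and 0.967 for 1 and 4 DAT.

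Control replicates 3 and 4 at 1 DAT differed most from the other libraries of their day, with root mean square log2 distances of 0.93 and 0.92, where the others lay between 0.50 and 0.67. They held 87 of the 254 highest and lowest values of the 127 tags with at least 20 reads (34.3%, where 2 of 12 libraries make up 16.7%). They departed in opposite directions along the first principal component of these tags, which took up 40.8% of the variance. In replicate 4 the tag miR156-1.1-5p had its highest level of 65180 RPM and in replicate 3 its lowest of 6664 RPM, and miR156-3-5p followed with 52930 and 7822 RPM. The tags miR167-2-5p (36480 against 8502 RPM) and miR167-14-3p (3830 against 193.0 RPM) had the same extremes. With the reverse pattern, miR395-18-3p had 707.7 RPM in replicate 3 and 9.53 RPM in replicate 4. In all, 13 tags were highest in replicate 4 and lowest in replicate 3 and 7 tags the reverse, among them miR1135-1184-5p, miR1131-281-5p and miR169-45-3p. Replicate 3 held 72458 miRNA reads with a TMM factor of 1.502 and replicate 4 held 140993 with a factor of 0.74. The part of depth and scaling in this contrast was not tested.

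**Figure D5:**
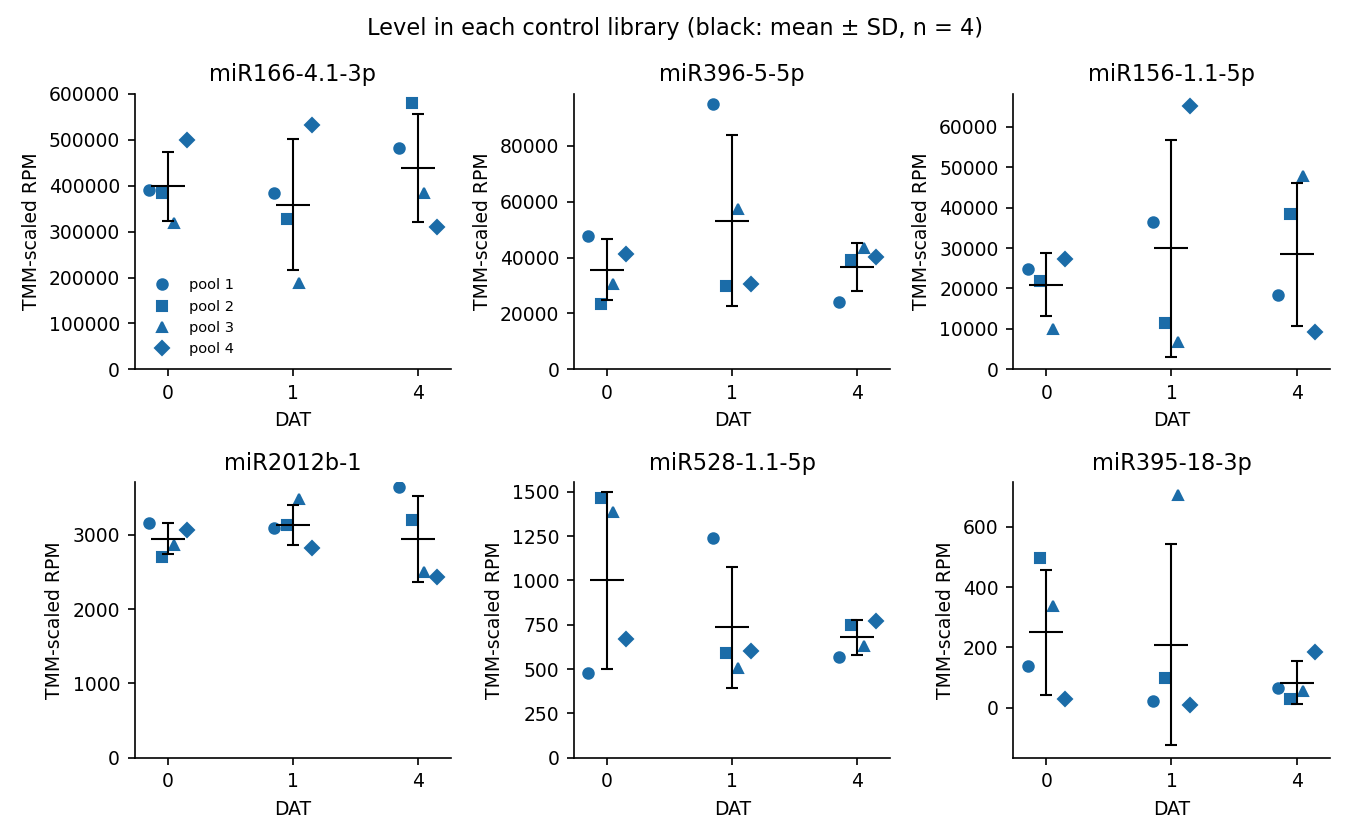
Level (TMM-scaled RPM, linear axis) of 6 tags in the 12 control libraries by day, with marker shapes for the 4 pools of plants and black bars for the mean ± SD of a day (n = 4). In miR156-1.1-5p the highest (65180 RPM) and lowest (6664 RPM) values are both at 1 DAT, while miR2012b-1 stays between 2434 and 3643 RPM.

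The share of family miR166 was 79.2% ± 2.22 at 0 DAT (78.5%, 78.1%, 77.7% and 82.5%), 75.2% ± 2.86 at 1 DAT (75.2%, 77.5%, 71.1% and 76.9%) and 80.2% ± 3.05 at 4 DAT (82.4%, 83.1%, 76.8% and 78.6%). All libraries of 1 DAT lay below all of 0 DAT, with a difference of -3.99 percentage points and a two-sided exact permutation p of 0.0286, the smallest that n = 4 against 4 allows. Adjusted over the 18 comparisons of shares, the p was 0.386, and as sign-flips of the 4 plant pools it was 0.125, the smallest that 4 pairs allow. The group of 4 DAT overlapped both. The share of 21-nt tags was 91.9% ± 0.85, 90.5% ± 1.02 and 91.6% ± 0.74 on the 3 days, and 0 of the 18 comparisons had an adjusted p under 0.05.

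Finally, the change over days in unstressed leaves was set against that of the heat-treated plants (4 libraries a day, n = 4) in a fit of all 24 libraries. From 0 to 1 DAT the change differed between control and heat for 5 tags (2.48% of all) and from 0 to 4 DAT for 2 tags (0.99%, edgeR FDR < 0.05). The largest differences were those of miR528-1.1-5p, with changes of -0.45 ± 0.37 in control and 5.69 ± 0.57 in heat (log2) from 0 to 1 DAT, and of -0.58 ± 0.37 and 6.00 ± 0.57 from 0 to 4 DAT. No levels of the heat libraries are given here, so these changes do not show a rise above the control level. The study reports that family miR528 was lowered by heat for a time. The other tags called from 0 to 1 DAT were miR528-1.3-3p, miR166-11-5p and miR399-18-3p, whose change was lower in control, and miR167-1-5p, whose change was higher in control. From 0 to 4 DAT the other was miR528-1.2-5p. The change of miR167-1-5p in control includes the single high library described above, replicate 4 at 1 DAT. With each control library left out, its difference from heat ran from 1.44 to 2.59, with an edgeR FDR up to 0.129. With the pool of plants as a block within each treatment, 1 tag passed in each of the contrasts, and miR528-1.1-5p was the only tag of these calls that stayed past the threshold in every alternative run. From 0 to 1 DAT, 1 or 2 tags were left without replicate 1, 2 or 3 at 0 DAT, replicate 2 at 1 DAT, or replicate 1 or 3 at 4 DAT. From 0 to 4 DAT, 1 tag was left without replicate 1, 2 or 3 at 0 DAT, replicate 2 or 3 at 1 DAT, or replicate 1, 2 or 3 at 4 DAT, while 6 tags passed without replicate 4 at 1 DAT. In the same fit the control libraries alone gave 0 calls in each contrast, with 9 and 7 tags at an unadjusted p under 0.05.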

How the data were processed

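Small RNA libraries were made from leaf RNA pools and sequenced in several MiSeq runs each. Per the methods of the study, the authors kept trimmed reads of 18 to 24 nt, selected distinct tags that reached 10 RPM in 1 library or more, and kept those that matched a wheat precursor locus (genome IWGSC RefSeq v1.0, Bowtie2) without mismatch and with a hairpin predicted by RNAfold. Raw counts per tag and library were deposited by the authors, as whole numbers without normalization. Tags were chosen by the authors over heat and control libraries together. A tag with several precursor loci in the 3 subgenomes cannot be assigned to one. Names were matched by sequence to the study's list: 167 tags in the same orientation and 35 as the reverse complement. Sequences printed come from the deposited table.

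From the counts of the 12 control libraries, edgeR's quasi-likelihood test (TMM, no filter, groups by day, FDR 0.05 by Benjamini-Hochberg over all tags) gave the tests between days and the intervals, which cover 95%. The common dispersion was 0.138. Shares and arm ratios (pseudocount 0.5, at least 20 reads per arm, only tags with an arm in their name) were compared by exact two-sided permutation. Alternatives were other library sizes (among them the study's totals of high-quality reads), a filter at a mean count of 20, the likelihood ratio test, DESeq2, removal of miR166, each library left out, the block of plants and a fit of all 24 libraries. The tests across tags were tested on simulated data. The versions were R 4.3.3, edgeR 4.0.16, limma 3.58.1, DESeq2 1.42.0, Python 3.11.15, numpy 2.4.6, scipy 1.17.1 and pandas 2.3.3.

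Replicate numbers pair control libraries across days because the methods state that all plants were sampled on each day, with 18 plants per treatment and replicate. In the counts, deviations from the day means of same-numbered libraries correlated above 0.1 in 4 of 12 pairs (r from -0.534 to 0.393), and a library's own pool gave the highest r in 2 of 12. The fit without the block is the main one. Replicate pairs differed by more than sampling noise (chi-square over its degrees of freedom 9.65 or more), so each library counted as 1 sample.

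Tags were named by rule: the 20 highest and 5 lowest mean levels, the 5 smallest p per test where none passed, the 5 smallest and largest CVs at a mean count of at least 20, and the main tag of each family. Other tags named were chosen after their values were seen. The members and lists were chosen with earlier results of these data known.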

Additional observations from a re-analysis of the deposited data

Results flagged for a closer look

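Among the 65 tags named by rule, each day's group of 4 control libraries was searched for a library whose gap to the nearest other library took up more of the group's range than Dixon's 95% critical value. Of 195 groups, 19 had such a library (9.74%), and 10 of the 19 were in replicates 3 and 4 at 1 DAT. Chance gives about 1 in 20 groups, but that rate does not apply here, because some of the tags were named for a large CV or a small p in these libraries, and in 3 of the 19 groups, those of miR395-7-3p, the other libraries were at 0. In replicate 4 at 1 DAT the high values were 3830 RPM of miR167-14-3p (the others 193.0 to 544.3), 2706 RPM of miR159f-1 (468.8 to 783.4), 571.7 RPM of miR159g-1 (257.4 to 305.1) and 543.1 RPM of miR399-18-3p (156.3 to 206.2). The low values there were 11670 RPM of miR1137-443-5p (17920 to 18830) and 1372 RPM of miR1121-33-5p (2388 to 2546). In replicate 3 at 1 DAT the high values were 1618 RPM of miR171-7-3p (832.9 to 952.9), 707.7 RPM of miR395-18-3p (9.53 to 99.0), 202.2 RPM of miR395-7-3p (the others at 0) and 82.7 RPM of miR1137-264-3p (26.1 to 33.0).

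In replicate 1 at 1 DAT, miR528-1.1-5p had 1241 RPM (the others 505.5 to 600.3) and miR1439-2-5p 255.5 RPM (131.9 to 152.5). At 0 DAT, replicate 2 had 17790 RPM of miR167-2-5p (11430 to 11890) and 6.69 RPM of miR395-7-3p (the others at 0), and replicate 3 had 392.6 RPM of miR399-18-3p (219.1 to 234.3). At 4 DAT, replicate 4 had 344.3 RPM of miR9772-6-5p (219.0 to 231.7), 232.7 RPM of miR319g-1 (128.7 to 144.6) and 4.65 RPM of miR395-7-3p (the others at 0), and replicate 3 had the low value of 214.9 RPM of miR9772-4-5p (244.6 to 248.8). The values of miR395-7-3p at 0 and 4 DAT are single reads.

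Tests of the difference between control and heat in the change over days passed for 7 combinations. The change from 0 to 1 DAT in control minus that in heat (log2, edgeR FDR in parentheses) was -6.14 for miR528-1.1-5p (7.26e-07), -3.28 for miR528-1.3-3p (0.0207), -1.88 for miR166-11-5p (0.0492), -1.69 for miR399-18-3p (0.0492) and 2.28 for miR167-1-5p (0.0492). From 0 to 4 DAT it was -6.58 for miR528-1.1-5p (1.79e-07) and -1.70 for miR528-1.2-5p (0.0466).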

How the results depend on the processing

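The count of 0 calls between the days held in all 23 fits run for tags, with 0 to 8 tags at an unadjusted p under 0.05 in the joint test, 2 to 9 from 0 to 1 DAT, 3 to 9 from 0 to 4 DAT and 1 to 13 from 1 to 4 DAT, and a lowest FDR of 0.326, and in the 23 fits of the joint test of families, with a lowest FDR of 0.116. The replicate block, which pairs libraries of the same plants, changed none of these counts (0), but gave 1 tag in place of 5 and 1 in place of 2 for the difference from heat from 0 to 1 and from 0 to 4 DAT. These 2 counts were 3 (from 0 to 1 DAT) with DESeq2 size factors in edgeR, 1 and 1 without TMM, 9 and 4 with high-quality reads as library sizes, 8 and 5 with the filter, 9 and 7 by the likelihood ratio test and 8 and 7 by DESeq2, and ran from 1 to 6 in both contrasts with each control library left out. The cause was not tested.

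For miR395-7-3p, leaving out replicate 3 at 1 DAT turned the difference from 0 to 1 DAT (range over left-out libraries -1.64 to 5.77, log2) and that from 1 to 4 DAT (-5.72 to 1.49), because 22 of its 24 reads are in that library. Leaving out replicates 3 and 4 of 1 DAT together, an alternative chosen after seeing the data, gave -1.67 and 1.51. With reads outside miR166 as the denominator, the share of 21-nt tags differed by 0.0043 percentage points from 0 to 1 DAT, by -2.75 from 1 to 4 DAT and by -2.749 from 0 to 4 DAT (-0.249 with all reads). With a library left out the difference from 0 to 4 DAT ran from -0.56 to 0.11. With high-quality reads as the denominator of RPM, mean levels were 22820 for miR166-4.1-3p, 2462 for miR396-5-5p and 1524 for miR156-1.1-5p, and 6 tags reached 1000 RPM, since the denominator then holds all 18 to 24 nt reads. The 20 most abundant tags were the same 20. Depth limits the rest: 75 tags had under 20 reads per library.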
